A study of Mus musculus with 9 samples.

Results

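Cd274 and Pdcd1lg2 encode PD-L1 and PD-L2, the ligands of the inhibitory T cell receptor PD-1, and lie next to each other on mouse chromosome 19. All peaks that overlapped either gene body or lay within 20 kb of it were taken from the full ATAC-seq peak lists of 9 libraries, which gave 17 of 137541 peaks. These 17 peaks merged into 5 of the 32649 open regions of the series. On GRCm38 the gene table (RefSeq, GRCm38.p6) places Cd274 (gene ID 60533) at chromosome 19, 29362107 to 29388095, and Pdcd1lg2 (gene ID 58205) at 29410919 to 29472927. The window examined ran from 29342107 to 29492927, a length of 150821 bp.

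ATAC-seq cuts and tags accessible DNA with a transposase, so a peak marks open chromatin. The cells were of the mouse melanoma line B16, which was injected into mice, and tumour cells were sorted at harvest on day 15. B16_IFNg denotes B16 cells exposed long term to interferon gamma before the injection, for 2 weeks in replicates 1 and 2 and for 3 weeks in replicate 3. Res499 denotes a derivative of B16 that resists immune checkpoint blockade and received no treatment. B16_untreated denotes B16 cells with no treatment. Each group had 3 libraries. Separate mice for the replicates are not stated in the labels, so p-values reflect the spread between these libraries, which may be technical. The labels also do not say whether the resistant line is a single clone. The interferon exposure ended before the cells entered the mouse, so the lists show the chromatin of tumours after that exposure and not during it. In a sorted population, fewer cells with an open site and a lower opening per cell cannot be told apart.

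PD-L1 on a tumour cell binds PD-1 on T cells and dampens their response. In many tumour cells Cd274 is induced by interferon gamma, whose receptor signals through the kinases JAK1 and JAK2 and on to the transcription factor IRF1. PD-L2 is known mainly from dendritic cells and macrophages. The promoter table of RefSeq places the start site of Cd274 at 29367438 on the plus strand, 5331 bp inside its outer annotated end. Plgrkt, a plasminogen receptor gene, is read in the other direction and overlaps that stretch, with its own start site at 29361871 on the minus strand. The outer end of Cd274 is therefore beside the start of Plgrkt, 5567 bp from the start site of Cd274. As Cd274 is on the plus strand, this outer end is the upstream end of its annotation. The region there is named after Plgrkt, and whether Cd274 transcripts also start there was not tested.

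The promoters of these 3 genes are printed because they behaved differently in the peak lists. Each runs from 250 bases before to 50 bases after the start site, 5′ to 3′ on the strand of the gene, from RefSeq (GRCm38.p6). The Plgrkt promoter was chr19:29361822-29362121 (minus strand), that of Cd274 chr19:29367188-29367487 (plus strand) and that of Pdcd1lg2 chr19:29410669-29410968 (plus strand). Capitals mark the bases covered by every peak called there, which were 128 bases shared by 9 libraries for Plgrkt and 117 bases shared by 2 libraries for Cd274. The Pdcd1lg2 promoter had no peak and has no capitals.
Plgrkt: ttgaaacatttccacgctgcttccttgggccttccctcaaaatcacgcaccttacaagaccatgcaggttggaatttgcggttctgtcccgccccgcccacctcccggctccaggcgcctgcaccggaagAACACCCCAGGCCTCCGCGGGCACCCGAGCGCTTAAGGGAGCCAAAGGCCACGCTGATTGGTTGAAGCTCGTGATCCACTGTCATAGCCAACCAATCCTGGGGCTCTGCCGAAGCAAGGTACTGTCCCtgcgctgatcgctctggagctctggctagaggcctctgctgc
Cd274: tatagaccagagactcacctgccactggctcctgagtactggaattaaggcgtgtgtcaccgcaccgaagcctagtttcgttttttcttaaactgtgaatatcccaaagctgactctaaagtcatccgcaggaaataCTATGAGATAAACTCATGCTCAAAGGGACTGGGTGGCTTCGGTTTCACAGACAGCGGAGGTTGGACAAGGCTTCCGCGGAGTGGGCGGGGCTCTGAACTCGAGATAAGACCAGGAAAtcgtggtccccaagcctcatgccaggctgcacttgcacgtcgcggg
Pdcd1lg2: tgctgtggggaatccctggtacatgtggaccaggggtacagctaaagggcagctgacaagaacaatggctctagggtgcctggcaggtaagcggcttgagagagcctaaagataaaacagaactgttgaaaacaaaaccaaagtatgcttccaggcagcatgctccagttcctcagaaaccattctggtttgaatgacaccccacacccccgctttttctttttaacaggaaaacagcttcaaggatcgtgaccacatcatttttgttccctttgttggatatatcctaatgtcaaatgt

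The 3 promoter windows differed in base composition. The Plgrkt window held 17 CpG dinucleotides and 60.7% G and C, the Cd274 window 15 and 52.7%, and the Pdcd1lg2 window 3 and 46%. The median over 21262 protein-coding promoters was 13 CpG and 56.3%. Both strands were searched for short motifs. The interferon gamma activated site GAS (TTCNNNGAA), the interferon response element (ISRE), the AP-1 site (TGANTCA) and the TATA box (TATAAA) had no match in these 3 windows. Among all promoters 7.69%, 3.35%, 6.99% and 12.6% held them. The GC box (GGGCGG), found in 46.2% of promoters, matched once in Cd274, 31 bases before the start site and inside the capitals, and at 2 positions in Plgrkt that overlap by 1 base. The CCAAT box (CCAAT), found in 38.2%, matched at 2 positions in Plgrkt, both inside the capitals. A loose NF-kB pattern matched in 57% of promoters, at 1 position in Pdcd1lg2 and 2 in Plgrkt. A match is a run of letters and not a measured site, and letters missing from these windows say nothing about sites elsewhere. Only exact matches were counted, so a variant of a motif that differs by a single base, within these windows too, was not searched for.

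The 17 peaks of the locus fell in 5 regions. A single region, at the start of Plgrkt, was called in all 9 libraries. The start site of Cd274 was called in 1 B16_IFNg library, no Res499 library and 1 B16_untreated library. That of Pdcd1lg2 had no peak within 1 kb in any library. A region past the far end of Pdcd1lg2 was called in no B16_IFNg library, 1 Res499 library and 3 B16_untreated libraries. The remaining pair of regions were each called only in B16_untreated replicate 2, which had the longest list.

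**Figure D1:**
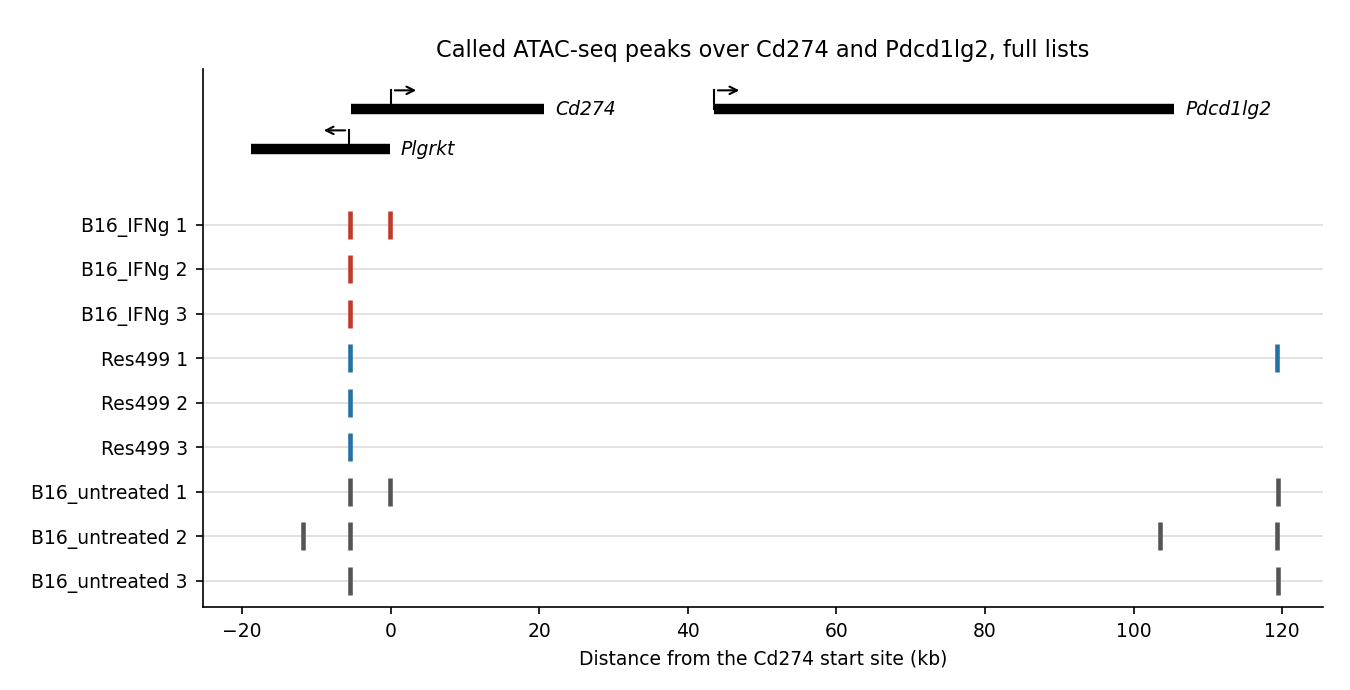
Each tick is the summit of a called peak, placed by its distance in kb from the start site of Cd274, with 1 row per library. Black bars are gene bodies and arrows the start sites and directions of the genes. The column of ticks at the start of Plgrkt runs through all 9 libraries, and the body of Pdcd1lg2 holds 1 tick.

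The lists held 9221 to 25374 peaks, and the relative depth ranged from 7.59 to 11.1 fragments per kb of the effective genome. The labelled cell type was checked at 6 melanocyte genes: Pmel, Dct and Mitf were called at a gene end (a peak at most 1 kb away) in all 9 libraries, Tyr in 7, and Mlana and Sox10 in 1 each. None of the 6 immune genes Ptprc, Cd3e, Cd68, Lyz2, Csf1r and Itgax was called there in any library. Of 4 endothelial and fibroblast genes, Col1a1 was called in 7 libraries and Pecam1, Cdh5 and Pdgfra in 0. Over all 21883 protein-coding genes, 26.4% were called at a gene end in all 9 libraries and 49.4% in 0, so genes without a call were common. With each list cut to its 9214 most significant peaks, 2 of the 6 melanocyte genes were called in all 9 libraries and 2 in 0.

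B16_IFNg libraries had 2, 1 and 1 peaks in the window, Res499 libraries 2, 1 and 1, and B16_untreated libraries 3, 4 and 2. The groups overlapped at 2 peaks. B16_IFNg averaged 1.33 ± 0.577 peaks (SD, n = 3), Res499 1.33 ± 0.577 (SD, n = 3) and B16_untreated 3 ± 1 (SD, n = 3). With B16_IFNg and Res499 pooled, the mean was 1.33 peaks against 3 peaks in B16_untreated, a difference of -1.67 (exact permutation test, two-sided, with 84 arrangements, p = 0.0357, adjusted p = 0.143 over 4 comparisons). Each of the pooled groups alone against B16_untreated gave an exact p of 0.2, where 0.1 is the smallest that 3 against 3 libraries can give. The ratio of the pooled mean to the B16_untreated mean was 0.444 for the locus and 0.636 for whole lists. The lists of B16_untreated were thus longer on average.

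When each list was shortened to its 9214 most significant peaks, as many as the shortest had on chromosomes 1 to 19, X and Y, the locus held 0, 1 and 1 peaks in B16_IFNg, 1 in each Res499 library and 1 in each B16_untreated library. The pooled difference was then -0.167 (exact permutation p = 1). The peak that dropped out, in B16_IFNg replicate 1, was 1 of 222 with the same significance, over ranks 9116 to 9337, so the order among ties decided it. By the width of the shortest peak, 4 libraries were of a long and 5 of a short fragment class, and each group had libraries in both. Every replicate 2 library was short and every replicate 3 library long, while replicate 1 was long only in B16_untreated. The long library of B16_IFNg was also its only one with 3 weeks of exposure, so these cannot be told apart. In the long class the counts were 1 in B16_IFNg, 1 in Res499, and 3 and 2 in B16_untreated. In the short class they were 2 and 1 in B16_IFNg, 2 and 1 in Res499, and 4 in B16_untreated. The within-class difference for the pooled groups was -2.06 (exact permutation test over 30 arrangements, p = 0.0333).

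The region at the start of Plgrkt, merged over the libraries, spanned chromosome 19, 29361698 to 29362323. Only the peak of B16_untreated replicate 3 reached the outer end of Cd274 at 29362107, and the peaks of the other libraries ended before it. The summits of the region lay within 76 bp of each other, 30 to 106 bp upstream of the Plgrkt start site. The peaks were 128 to 542 bp wide. Fold, a ratio of the authors' caller over the local background, was 6.44, 5.73 and 5.40 in B16_IFNg, 6.70, 6.24 and 6.05 in Res499, and 6.02, 9.31 and 8.71 in B16_untreated. By significance the peak ranked 9116 of 16240, 8765 of 13175 and 8050 of 11183 in B16_IFNg. It ranked 6586 of 15396, 4585 of 9221 and 5158 of 11768 in Res499. In B16_untreated it ranked 8680 of 15045, 8127 of 25374 and 5896 of 20139. It was thus a mid-list peak, and ranks of lists of unequal length are not comparable as they stand.

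The fragments behind this peak were few. The fold and the p-value of a peak together fix the whole number of fragments at its summit. That number was 12, 9 and 12 in B16_IFNg, 14, 12 and 19 in Res499, and 20, 20 and 27 in B16_untreated. A count of 12 has a 95% Poisson interval of 6.2 to 21.0 and a count of 27 one of 17.8 to 39.3, which cover counting error only. The lowest number in any peak of a list was 6 to 10. B16_IFNg and B16_untreated did not overlap in this count, nor did Res499 and B16_untreated, but most of their intervals did. Shares over all common regions are given below for counts per depth only. The counts were not scaled for depth, and the nearest libraries of Res499 and B16_untreated had 19 and 20 fragments.

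Per unit of relative depth the summit held 1.31, 1.19 and 1.53 fragments in B16_IFNg, 1.28, 1.38 and 1.70 in Res499, and 1.85, 2.46 and 2.76 in B16_untreated. The pooled B16_IFNg and Res499 libraries were all below B16_untreated, with a ratio of 0.598 (log2 difference -0.74, exact permutation test, p = 0.0119, the smallest these 9 libraries can give, adjusted p = 0.0476 over 4 comparisons). The ratio to B16_untreated was 0.575 for B16_IFNg and 0.623 for Res499, each with an exact permutation p of 0.1. The same held across the genome: 59.3% of the 6149 regions called in all libraries with recovered counts were lower without overlap in the pooled groups than in B16_untreated, 62.3% in B16_IFNg and 86.3% in Res499. Those higher without overlap were 0.0488%, 0.0976% and 0.0488%. Between Res499 and B16_IFNg, 17.4% were lower and 0.179% higher in Res499, while the Plgrkt start overlapped (ratio 1.08, exact permutation p = 0.6). Within fragment classes the pooled log2 difference was -0.73 (exact permutation p = 0.0333, adjusted p = 0.133). The median ratio over those regions was 0.574 for the pooled groups, 0.632 for B16_IFNg and 0.523 for Res499. Relative to that median the Plgrkt start was at 1.04 times in the pooled groups, 0.91 times in B16_IFNg and 1.19 times in Res499. Res499 against B16_IFNg was at 1.31 times the median ratio of that comparison. Scaled by the median summit pileup of each library, its log2 difference was 0.38 (exact permutation p = 0.1, adjusted p = 0.267 over 4 comparisons). The direction for Res499 and for the pooled groups therefore turned with the scaling, while B16_IFNg stayed lower (log2 difference -0.131). Against B16_untreated, 27.2% of common regions had a lower difference than the Plgrkt start in B16_IFNg, 82.0% in Res499 and 60.4% in the pooled groups. For Res499 against B16_IFNg it was 94.9%. The lower count per depth was shared with most common regions and is not read as particular to this locus.

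A comparison on equal terms used the percentile of the peak's significance among the 6166 regions called in all 9 libraries, where 0 is the most significant. The Plgrkt start was at 93.2, 92.1 and 91.6 in B16_IFNg, 80.6, 65.7 and 69.1 in Res499, and 91.1, 88.0 and 73.4 in B16_untreated. B16_IFNg had the lowest significance and the tightest values, and Res499 overlapped B16_untreated. In the full lists the B16_IFNg peaks stood in blocks of 222, 317 and 192 peaks of equal significance. Those blocks held 6, 127 and 8 peaks in Res499, and 5, 2 and 4 in B16_untreated. B16_IFNg averaged 92.3 ± 0.807 and Res499 71.8 ± 7.86, against 84.2 ± 9.44 in B16_untreated (SD, n = 3 each). Res499 minus B16_IFNg was -20.5 points with no overlap (two-sided exact permutation test, p = 0.1, the smallest possible, adjusted p = 0.2 over 4 comparisons). Of the common regions 5.37% were likewise more significant in Res499 without overlap, and 5.42% less. B16_IFNg minus B16_untreated was 8.11 points (exact permutation p = 0.1, adjusted p = 0.2), also without overlap, though the nearest libraries were at 91.6 and 91.1, and 4.95% of the common regions did the same, with 5.64% the other way. The difference was 2.71 points without B16_untreated replicate 3 and 17.9 points with peaks ordered by fold. Res499 minus B16_untreated was -12.4 points (exact permutation p = 0.2), with overlap, where 6.41% of common regions were more and 5.92% less significant in Res499 without overlap. The pooled difference was -2.15 points (exact permutation p = 0.762), or -3.71 points within fragment classes (exact permutation p = 0.733), where 1.46% were more and 1.43% less significant without overlap. No comparison passed the threshold. These 4 comparisons share libraries and are not independent.

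**Figure D2:**
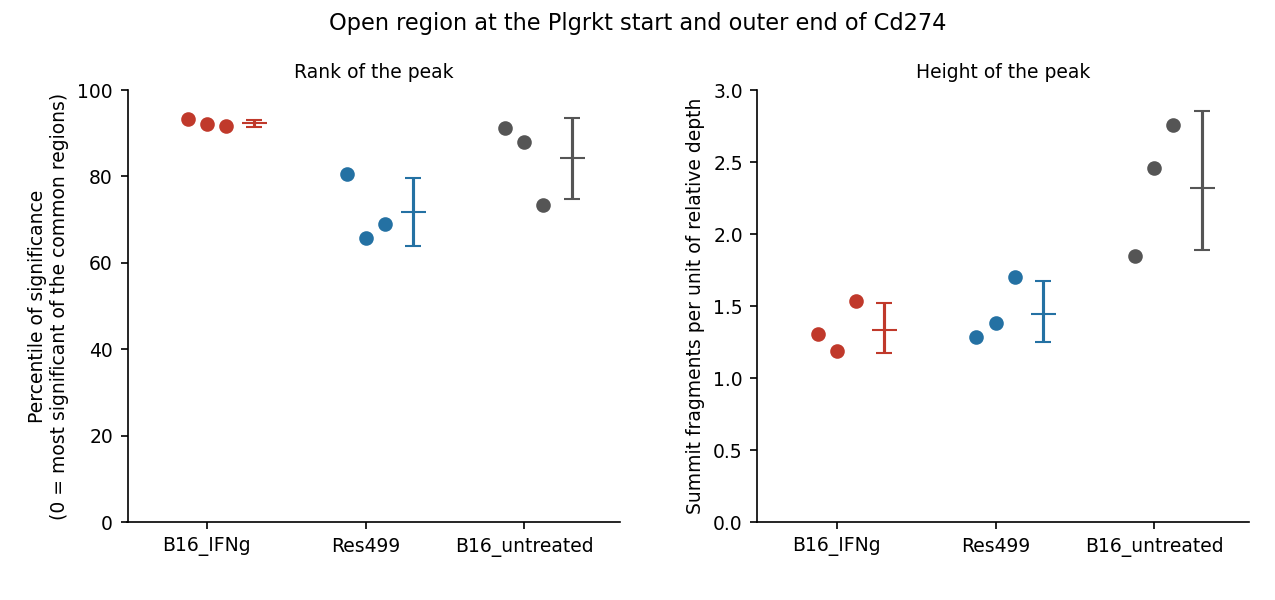
Points are libraries, and bars beside them the mean and SD (on the log2 scale in the right panel). The left axis gives the percentile of significance of the Plgrkt start region among 6166 common regions and the right axis its summit fragments per unit of relative depth. B16_IFNg libraries sit between 91.6 and 93.2 on the left. On the right all B16_IFNg and Res499 libraries sit below B16_untreated, as did the median of the common regions.

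The start site of Cd274 itself, 146 bp from the outer 5′ end annotated for Plgrkt, was covered by a peak in 2 libraries. In B16_IFNg replicate 1 the peak lay at 29367325 to 29367475, with a fold of 4.93, rank 13901 of 16240 and 9 fragments at a summit 51 bp upstream of the start site. In B16_untreated replicate 1 it lay at 29367192 to 29367441, with a fold of 5.68, rank 10249 of 15045 and 17 fragments at a summit 131 bp upstream. The 9 fragments in B16_IFNg have a 95% Poisson interval of 4.12 to 17.1, and the lowest peak of that list had 7. Both peaks were in the weaker part of their lists, and neither was among the 9214 most significant. With a peak in 1 library of B16_IFNg, 0 of Res499 and 1 of B16_untreated, no difference between groups was detectable at this depth. In the other 7 libraries an open site below the caller's limit cannot be told apart from a closed one.

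Across the genome, start sites were mostly called in every library or in none. Of 21262 start sites of protein-coding genes, 27.9% had a peak within 1 kb in all 9 libraries, as Plgrkt did, and 48.2% in 0, as Pdcd1lg2 did. Cd274 was among the 1.79% called in exactly 2. Among start sites whose window held within 2 of the 15 CpG of Cd274, 34.6% were called in all 9 libraries, 26.8% in 0 and 38.5% in 1 to 8. Among those with at most the 3 CpG of Pdcd1lg2, 95.1% were called in 0. By group, 41.1 ± 3.90% of start sites had a peak in B16_IFNg, 39.0 ± 4.95% in Res499 and 46.9 ± 3.11% in B16_untreated (SD, n = 3 each).

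**Figure D3:**
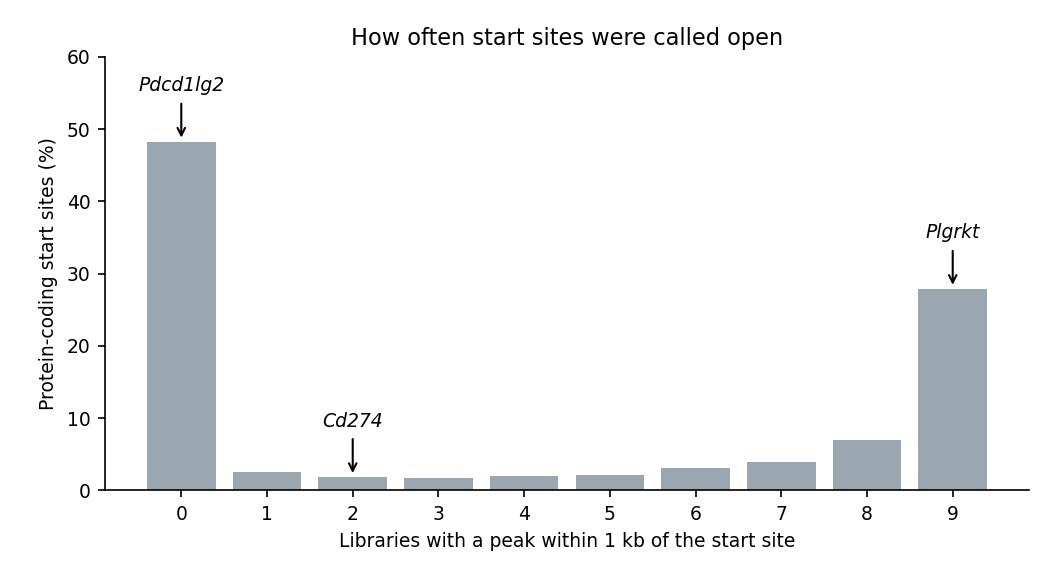
Bars give the share of 21262 protein-coding start sites by the number of libraries with a peak within 1 kb, in percent. Arrows mark Pdcd1lg2 at 0 libraries (48.2% of start sites), Cd274 at 2 (1.79%) and Plgrkt at 9 (27.9%).

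Inside Pdcd1lg2 a single peak was called, in B16_untreated replicate 2 at 29470838 to 29470956, 1971 bp from the far end of the gene. Its fold was 4.51, its rank 23138 of 25374, and its 7 summit fragments were close to the lowest number of that list, 6. The other peak seen in that library alone lay inside Plgrkt at 29355549 to 29355808, 6299 bp from the outer end of Cd274, with a fold of 6.75, rank 14488 and 12 fragments. No B16_IFNg or Res499 library had a peak in either place. No peak was called in the 22823 bp between Cd274 and Pdcd1lg2.

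The region past Pdcd1lg2 spanned 29486560 to 29487022, outside any gene of the table, and its summits lay 13754 to 13959 bp beyond the end of Pdcd1lg2. It had no peak in B16_IFNg. In Res499 replicate 1 its fold was 4.81, its rank 12422 of 15396 and its summit count 9 fragments. In B16_untreated its fold was 4.86, 6.70 and 4.01, its rank 10401 of 15045, 14254 of 25374 and 18722 of 20139, and its summit count 21, 13 and 13 fragments. None of these peaks was among the 9214 most significant.

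A region counted as lost where all libraries of B16_untreated and no library of B16_IFNg had it, and as gained in the reverse case. By this rule it was the only region of the window lost in B16_IFNg against B16_untreated, and no region was gained. Of the 15719 regions with at least 3 calls in that comparison, 4.9% were lost and 0.0318% gained, and 2 of the window's regions were among those tested. For Res499 against B16_untreated no region of the window was gained or lost, against 0.0533% and 8.06% of 15010 regions. Between Res499 and B16_IFNg none was gained or lost either, against 0.277% and 1.15% of 11916 regions. For the pooled groups against B16_untreated none was gained or lost, against 0.00593% and 2.44% of 16861. A loss of 1 among 2 regions is too few to read against these shares. A rule on calls also depends on list length, whose mean was highest in B16_untreated. Single lists overlapped: B16_untreated replicate 1 had 15045 peaks and the region, B16_IFNg replicate 1 had 16240 and no peak there. The part of list length in this loss was not tested.

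**Figure D4:**
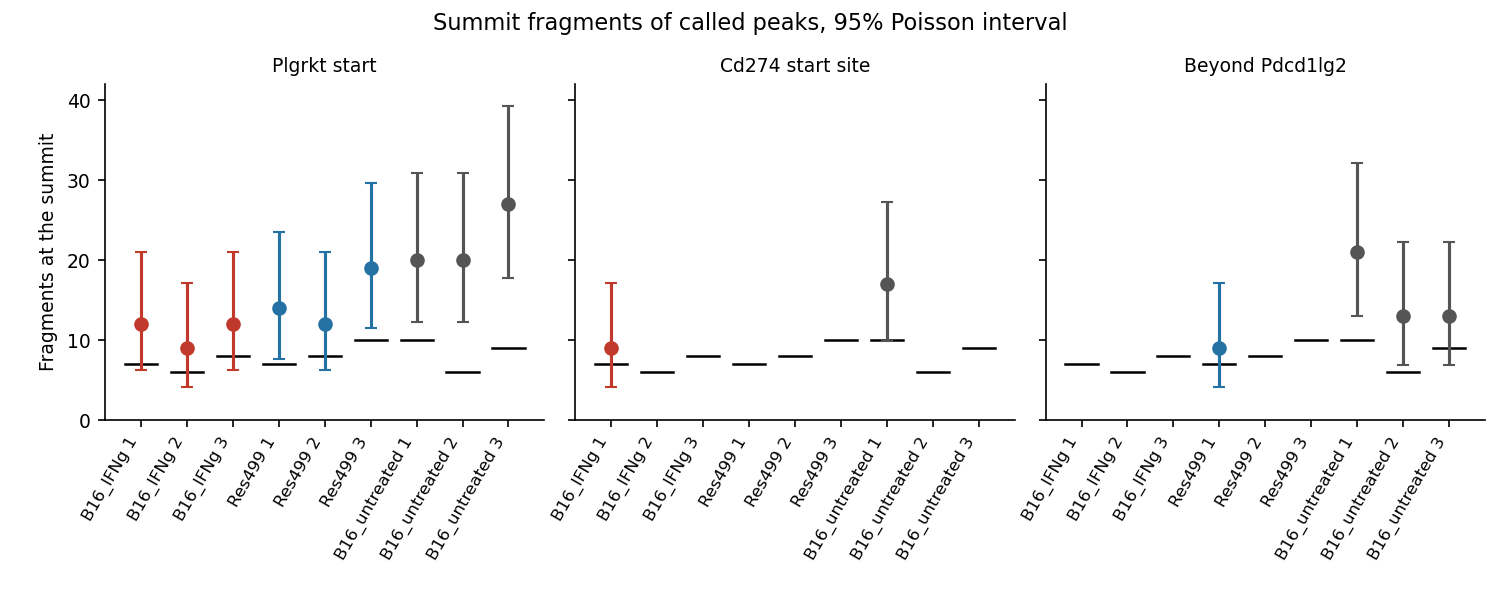
Points give the fragments at the summit of each called peak, with 95% Poisson intervals, for 3 regions of the locus in each library. Black lines mark the lowest summit count of any peak in that library's list. Libraries without a point had no call there, and the points at the Cd274 start site (9 and 17) and beyond Pdcd1lg2 (9 to 21) lie near those lines in several libraries.

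By peaks within 1 kb of a gene end, the measure used for the genes below, Cd274 was called in all 9 libraries. Its calls were those of the region at the Plgrkt start, beside its outer end. By the same measure Plgrkt was called in 2 libraries and Pdcd1lg2 in 0. Besides Plgrkt, whose start was called in all 9 libraries, 5 neighbouring genes lay within 150 kb, and 3 of them were called in every library. Jak2, the kinase gene whose end lies 29012 bp before the window, was called at a gene end in all 9 libraries, as was Ric1, a regulator of Golgi transport, and Ermp1, an endoplasmic reticulum peptidase. Insl6 had one in 2 B16_IFNg, 1 Res499 and 3 B16_untreated libraries, and Rln1, the relaxin gene, in 0, 0 and 1. Among the common regions, the percentile of the Jak2 start was 46.9 ± 25.0 in B16_IFNg and 39.7 ± 24.7 in Res499, against 25.7 ± 11.4 in B16_untreated (SD, n = 3 each). The Ric1 start was at 56.0 ± 11.8 in B16_IFNg and 35.8 ± 23.5 in Res499, against 47.7 ± 5.72 in B16_untreated (SD, n = 3 each). The lowest exact permutation p among 4 comparisons was 0.25 for Jak2 and 0.2 for Ric1. A window of 50 kb, which reaches the end of Jak2 and the start of Ric1, held 4, 4 and 2 peaks in B16_IFNg, 4, 2 and 3 in Res499, and 5, 8 and 5 in B16_untreated. B16_IFNg and Res499 overlapped each other, and both lay below B16_untreated (pooled difference -2.83, exact permutation p = 0.0119, the smallest possible). The ratio of the pooled mean to that of B16_untreated was 0.528 in this window and 0.636 for whole lists. In equal-length lists, an alternative chosen after seeing the data, the pooled mean was 2.17 peaks against 2.67 peaks in B16_untreated, and the groups overlapped (exact permutation p = 0.643).

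Of all 21883 protein-coding genes, 26.4% were called at a gene end in all 9 libraries and 49.4% in 0. Of 7 genes on the route from interferon gamma to Cd274, 4 had a peak at a gene end in all 9 libraries: the kinase genes Jak1 and Jak2, and the transcription factor genes Stat3 and Irf1. The receptor chain Ifngr1 had one in 3 B16_IFNg, 2 Res499 and 3 B16_untreated libraries, and Ifngr2 in 2, 2 and 3. Irf2, a transcription factor related to Irf1, had one in 2, 2 and 3. None of the 7 was without a peak. Of 5 partners and stabilisers, Cmtm6, which keeps PD-L1 at the cell surface, was called in all 9 libraries. Its relative Cmtm4 was called in 2 B16_IFNg, 1 Res499 and 3 B16_untreated libraries, and Rgmb, which binds PD-L2, in 2, 1 and 2. Pdcd1, the gene of PD-1, and Cd80, whose product binds PD-L1, had no peak in any library. In that list of 5, 1 gene was called in every library and 2 in none, which is near the shares over all genes. These counts are over full lists, whose mean length was highest in B16_untreated.

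The gene ends whose percentile over the 9 libraries was most like that of the Plgrkt start were Alms1 (Pearson r = 0.91), Rad51d with Rffl (r = 0.91), Atxn7l3b (r = 0.89), Cnot1 (r = 0.88) and Rps23 (r = 0.88). They are the highest of 6166 regions, whose median r was near 0, so the values describe these libraries only. With Spearman's rho, the Alms1 region (rho = 0.93) and the Rad51d and Rffl region (rho = 0.92) were again among the 5 highest, and the other 3 were not.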

How the data were processed

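ATAC-seq peak lists of 9 libraries (3 per group) were used. MACS2, Bowtie2 (2.2.4), cutadapt (1.9) and CASAVA are named with the build GRCm38 in the submitters' processing notes. Caller settings, the MACS2 version and whether reads were shifted for transposase insertion are not given in the sources used here. A shift would move peak edges by a few bases. The deposited lists, called per library and not on pooled replicates, give per peak a score, a summit position, a fold enrichment (a ratio), and a −log10 p and −log10 q. The deposited −log10 q starts near 2 in every list.

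From fold and −log10 p the summit pileup k and background were recovered as fold = (k + 1)/(background + 1) with a Poisson tail p, within 0.01 for 99.97% to 100% of the peaks with −log10 p up to 200. Relative depth is the ratio of the lowest background in a list to its shortest peak width. That width also split libraries into a long class (at least 150 bp) and a short class, treated as a technical batch. Peaks that overlapped or touched were merged (chromosomes 1 to 19, X and Y).

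Differences of group means were tested by exact permutation of the libraries, two-sided, with Benjamini-Hochberg adjustment over 4 comparisons per measure. The region called the start of Cd274 in the planned tests is the one at its outer annotated end. The promoter table places the start of Plgrkt in it, and whether Cd274 transcripts also start there was not tested. Samples of one number were not paired: the correlation of their deviations over common regions was -0.0016 to 0.0903. At most 0.068% of peak positions were identical between libraries. The rule for named genes covers the members, the listed and neighbouring genes within 150 kb, the markers, and the 5 most similar gene ends. A listed gene and a marker are not reported here. The members and lists were chosen with earlier results of these data known. Scripts were tested on simulated data (Python 3.11.15, scipy 1.17.1). No genome sequence was used, so the region past Pdcd1lg2 is not printed.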

Additional observations from a re-analysis of the deposited data

How the results depend on the processing

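The smallest exact p for 3 against 3 libraries is 0.1, and each peak rests on 7 to 27 summit fragments. The pooled difference in peak number, -1.67, passed the unadjusted threshold with 50% of the peak inside the window, with the replicate block (exact p = 0.037), within fragment classes and with a window of 50 kb. It did not pass in equal-length lists (-0.167), with a window of 10 kb (-0.833, exact p = 0.155) or with −log10 q of at least 5 (-1.5, exact p = 0.0714), where fewer peaks count. With each library left out it ranged from -2.17 to -1.17, and the call was lost (exact p = 0.0714 or 0.107) without B16_IFNg replicate 2 or 3, Res499 replicate 2 or 3, or B16_untreated replicate 1 or 2. With the 50 kb window in equal-length lists, chosen after seeing the data, it was -0.5 (exact p = 0.643). For Res499 against B16_untreated the difference was 0 in equal-length lists. For Res499 against B16_IFNg, 0 in full lists, it was 0.333 in equal-length lists and with −log10 q of at least 5, -0.333 with a window of 10 kb or 50 kb, 0.333 with the 50 kb window in equal-length lists, and -0.333 to 0.333 with a library left out (exact p = 1 in each). The region lost in B16_IFNg was 1 in the full lists and 0 in equal-length lists and with −log10 q of at least 5. Under the lenient rule, or without Res499 replicate 1, 1 region was also lost in Res499 and in the pooled groups (range 0 to 1).

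The pooled percentile difference of the Plgrkt start, -2.15, was 2.10 when peaks were ordered by fold, and ranged from -7.52 to 1.35 with a library left out. It was positive without Res499 replicate 2 (1.35), Res499 replicate 3 (0.562) or B16_untreated replicate 1 (1.34). The cause was not tested. Scaled by the median summit pileup, the log2 difference in summit count was 0.244 for Res499 and 0.0567 for the pooled groups, opposite to the values per depth, since the median itself differs between groups. Per depth, the log2 difference of Res499 and B16_IFNg ranged from -0.00349 to 0.215 and was -0.00349 without Res499 replicate 3. The pooled summit count per depth kept an unadjusted exact p of 0.0179 to 0.0357 with a library left out and 0.037 with the replicate block, but its adjusted p was 0.0714 to 0.143 with a library left out, 0.148 with the block, 0.133 within fragment classes and 0.726 with scaling by the median summit pileup. The block changed no other call. The labels do not say whether the number of a sample marks a batch, though the fragment class followed it except in replicate 1. Of the 9 libraries, 6 correlated best with a library of their own number, and whether these share a batch was not tested. With a distance of 2500 bp, 1 of the 6 immune genes had a peak. In equal-length lists, 2 neighbouring genes in place of 3 were called in every library. Of 149 recomputed values with a test, 120 kept their direction and their side of the unadjusted threshold, which says little for 3 against 3 libraries since these cannot pass it.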
